A study of Homo sapiens with 10 samples.

Results

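Leucine tRNA was described here through the 41 rows named for it, all anticodons included, in tables of 631 tRNA rows made from iCLIP of PUS7. The rows were chosen by name, without those whose names begin with nm or nmt. In iCLIP, RNA is crosslinked to a protein by UV light in living cells and is sequenced after the protein has been pulled down. The libraries came from 293T, a transformed human embryonic kidney line (passages 20 to 25), and from H9, a human embryonic stem cell line (passages 40 to 45). All cells carried the PUS7 knockout, the controls included. The 3 FLAG-PUS7 libraries of 293T and the 2 of H9 came from knockout cells in which FLAG-tagged PUS7 had been put back, with the promoter of the construct not given in the sources used here. The 3 knockout libraries of 293T and the 2 of H9 came from knockout cells without tagged PUS7 and were taken through the anti-FLAG pull-down likewise, as a mock. Whether a knockout line was 1 clone is not stated either, and no marker gene of either line can be read from these tables. Nothing in the labels says that replicates were grown apart, and p-values therefore speak of the spread among these libraries, which may be technical.

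PUS7 is a pseudouridine synthase, an enzyme that turns uridine into pseudouridine in tRNA and mRNA, and in stem cells it is known for modifying tRNA-derived fragments. Leucine tRNAs belong, with those of serine and selenocysteine, to the class with a long variable arm. The anticodon families of leucine read different leucine codons, and genes of the Leu-CAA family carry an intron next to the anticodon that is removed when the precursor matures. In the row names, the first number marks a distinct tRNA sequence and the second a gene copy of it.

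The deposited values are level numbers in place of counts. Each row was therefore read as detected (1 read or more) or as not detected, and no amount per library was taken from it. The text width of a row, used below as a class, may follow the largest value of that row over the libraries. The depth of the libraries is unknown. A row missing from a library can therefore mean little of that tRNA or few reads in all, and these cannot be told apart. Over all tRNAs, FLAG-PUS7 libraries detected 458 to 479 rows and knockout libraries 0 to 232. The 0 belongs to the first H9 knockout library, where rows share 1 level for each width of their text. It can stand for a library without tRNA reads or for a table that was not filled, and results are given with and without it.

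Most leucine rows were detected in every FLAG-PUS7 library, and between 0 and 27 of the 41 rows were detected in a mock pull-down. Of the 41 rows, the 293T FLAG-PUS7 libraries detected 33, 32 and 32, and those of H9 31 and 33. The 293T knockout libraries detected 27, 19 and 14, and those of H9 0 and 27. All FLAG-PUS7 libraries were higher than every knockout library, by a mean difference of 15.4 rows over both lines, or of 8.67 rows without the first H9 knockout library. As shares, this was 78.9% ± 1.41 (SD, n = 3) against 48.8% ± 15.99 (SD, n = 3) in 293T. In H9 it was 78.0% ± 3.45 (SD, n = 2) against 32.9% ± 46.6 (SD, n = 2). With lines weighted equally the share differed by 37.6 points for leucine and by 52.3 points over all tRNAs. Without the first H9 knockout library these were 21.1 and 43.1 points, so the leucine gap was the smaller one. Over all tRNAs, too, every FLAG-PUS7 library lay above every knockout library. The spread was wide among knockout libraries and narrow among FLAG-PUS7 libraries.

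**Figure D1:**
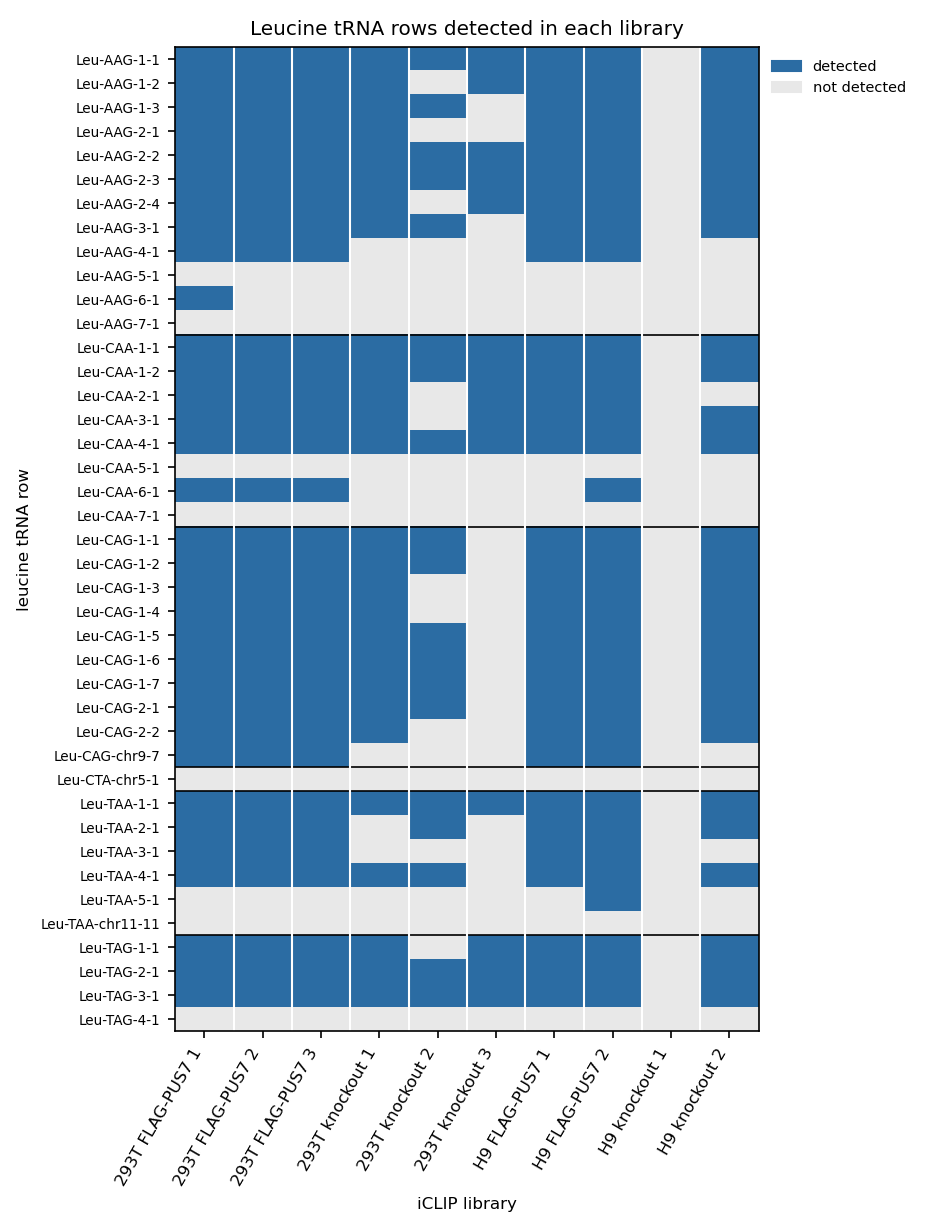
Detection of each of the 41 leucine rows (vertical axis, lines between anticodon families) in each of the 10 libraries (horizontal axis), blue where at least 1 read was present. The 5 FLAG-PUS7 columns are nearly alike, with 31 to 33 blue rows, whereas the knockout columns range from 0 to 27.

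Detection went with the annotation of the rows. A RefSeq symbol (GRCh38.p14) was found for 35 of the 41 rows. In that annotation 32 are tRNA genes and 3 are pseudogenes. Of the 32 rows of tRNA genes, 30 were detected in all 5 FLAG-PUS7 libraries. The others are Leu-CAA-6-1, found in 4 of them, and Leu-CAA-5-1, found in none. The 3 pseudogene rows, Leu-AAG-7-1, Leu-CAA-7-1 and Leu-TAG-4-1, were in no library. The 6 rows without a RefSeq match were Leu-AAG-5-1, Leu-CTA-chr5-1 and Leu-TAA-chr11-11, found in no library, Leu-AAG-6-1, found in the first 293T FLAG-PUS7 library alone, Leu-TAA-5-1, found in the second H9 FLAG-PUS7 library alone, and Leu-CAG-chr9-7, found in all 5. In total 31 rows were found by every FLAG-PUS7 library, 3 by some and 7 by none, and 0 rows were in a knockout library without being in a FLAG-PUS7 library. Over the whole table, 67.4% of rows were in all 5 FLAG-PUS7 libraries. That share covers rows of every annotation, and the share among all RefSeq tRNA genes is not given here. The leucine rows that any FLAG-PUS7 library lacked all had the narrowest text, so annotation and text width go together here.

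Of the 31 rows that every FLAG-PUS7 library held, 3 were missing from all knockout libraries (9.68%), where the same share over all tRNAs was 30.1%. A further 9 of the 31 were in all 4 knockout libraries that hold tRNA rows (29.0%), against 16.7% over all tRNAs. Rows of serine and selenocysteine, the other tRNAs with a long variable arm, had 2 of 28 in no knockout library (7.14%) and 6 of 28 in all 4 (21.4%). Rows differ in the width of the text their values had, here called width classes 1 (narrowest) to 4, and detection in the mock goes with it over all tRNAs. Wider text can hold a larger number, so a narrow class may stand for rows with few reads in any library. Of the leucine rows in all FLAG-PUS7 libraries, 2 of 31 were in classes 1 and 2, against 172 of 425 over all tRNAs. Within classes 3 and 4, 1 of 29 leucine rows was missing from all knockout libraries (3.45%), against 20 of 252 rows of all tRNAs (7.94%). These shares are descriptions, and the part of the width class in them was not tested. Leucine rows that share a tRNA sequence may share reads and are not independent: the 41 rows hold 28 sequences, and 18 rows belong to the 5 sequences with several copies.

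The 3 rows seen with FLAG-PUS7 alone each belong to a different anticodon. They are Leu-AAG-4-1 (TRL-AAG4-1, chromosome 6, 28478623 to 28478704), Leu-TAA-3-1 (TRL-TAA3-1, chromosome 11, 59551755 to 59551837) and Leu-CAG-chr9-7. Each was detected in 5 of 5 FLAG-PUS7 libraries and in 0 of 5 knockout libraries, the largest difference a row can show. In the test of single rows, an exact two-sided permutation that exchanges FLAG-PUS7 and knockout labels inside each line, each had p = 0.0167, the smallest that test can give, and an adjusted p of 0.0668 over 513 rows. Thus 0 of the 34 leucine rows tested passed, with 3 at an unadjusted p under 0.05. Over all tRNAs the test called 0% of 513 rows, and 128 reached 0.05 before adjustment. Stricter detection asked for more than the lowest level above none of a width class. Under it 2 leucine rows, in place of 3, were in all FLAG-PUS7 and no knockout libraries. Levels follow the order of text, so the lowest level need not hold the fewest reads. The row lost was therefore not shown to be weakly detected.

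By anticodon, 4 of the 5 leucine families with any detected row rose with FLAG-PUS7 in the share of rows detected, namely Leu-CAG, Leu-TAA, Leu-AAG and Leu-CAA, and Leu-TAG did not pass. The single Leu-CTA row was in no library. The same exact permutation test, adjusted by the Benjamini-Hochberg method over all 57 families with a detected row, called 78.9% of families, so 4 of 5 lies near the background. The adjusted p was 0.0221 for each of the 4 families and the unadjusted p 0.0167. The difference was 22.9 to 52.5 percentage points for the 5 leucine families, with a median of 34.7, and the median over all 57 families was 52.5. Within 1 cell line the number of libraries is too small to pass 0.05. Each of the 4 calls was lost when either H9 FLAG-PUS7 library was left out, with adjusted p from 0.0566 for Leu-TAA to 0.263 for Leu-AAG (exact permutation). Those of Leu-CAA and Leu-CAG were also lost without any single 293T FLAG-PUS7 library, at 0.0620 to 0.0792.

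**Figure D2:**
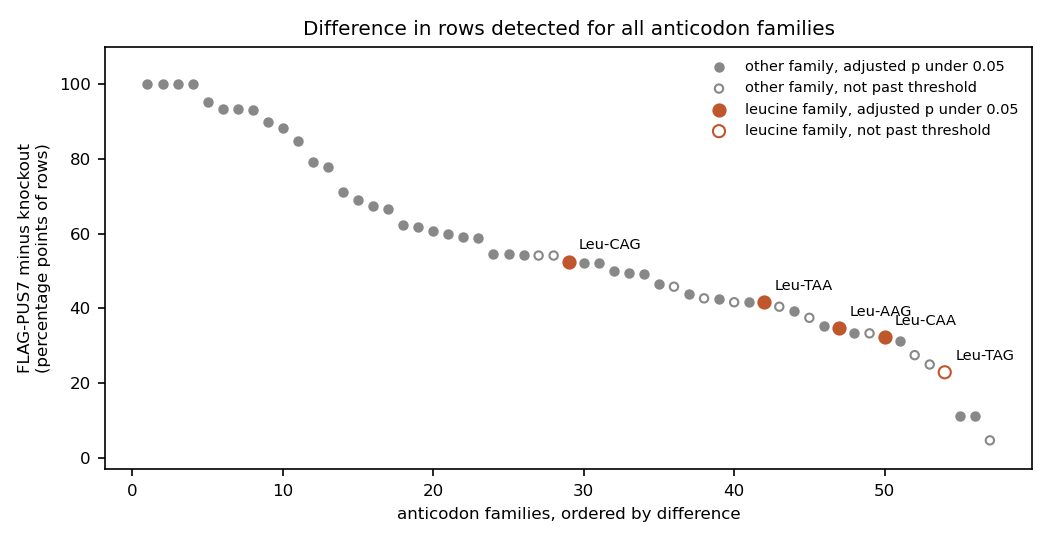
Difference in the share of rows detected, FLAG-PUS7 minus knockout in percentage points with both lines weighted equally (vertical axis), for the 57 anticodon families in order of size (horizontal axis). Filled points have an adjusted p under 0.05. The leucine families (orange) rank from 29 for Leu-CAG to 54 for Leu-TAG.

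Leu-CAG, with 10 rows, had a gap of 52.5 points, the widest of the leucine families with all rows counted. It was below Leu-TAA when chr-named rows were left out (47.2 against 50 points) and with RefSeq tRNA genes only (47.2 against 56.2 points). All 10 were detected in each of the 5 FLAG-PUS7 libraries. The 293T knockout libraries held 9, 6 and 0 of them, and those of H9 0 and 9. In both lines every FLAG-PUS7 library lay above every knockout library, as in 75.4% of all families. With the first H9 knockout library left out the difference came to 30 points (adjusted p = 0.0232 by exact permutation). The third 293T knockout library lacked the whole family although it detected 14 of the 31 other leucine rows, close to the 13 of the second. The call rests on 1 row. Leu-CAG-chr9-7 was absent from every knockout library, and with the 9 other rows alone the difference of 47.2 points failed the test (adjusted p = 0.208 by exact permutation, from 0.0211 to 0.227 over all alternatives). Leu-CAG-chr9-7 is in width class 1. Of all class 1 rows in every FLAG-PUS7 library, 42 of 46 were in no knockout library, so its absence there is common for its class. Class 1 may hold rows with few reads, which a sparse library can miss, and this was not tested.

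Leu-TAA, with 6 rows, was detected in 4 rows of each 293T FLAG-PUS7 library and in 4 and 5 rows of the H9 ones. The knockout libraries held 2, 3 and 1 rows in 293T and 0 and 3 in H9, without overlap. The difference was 41.7 points. With the first H9 knockout library left out this came to 29.2 points (adjusted p = 0.0442 by exact permutation). Leu-TAA-1-1 (TRL-TAA1-1, chromosome 6) was in all 4 knockout libraries that hold tRNA rows, and Leu-TAA-3-1 in none of them.

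Leu-AAG, with 12 rows the largest family, was detected in 10, 9 and 9 rows in 293T and in 9 and 9 rows in H9 with FLAG-PUS7. The knockout libraries held 8, 5 and 5 rows in 293T and 0 and 8 in H9. The difference was 34.7 points. With the first H9 knockout library left out this came to 18.1 points (adjusted p = 0.0232 by exact permutation). Leu-AAG-4-1 was the row of a RefSeq tRNA gene that set the groups apart. The 8 other rows of tRNA genes were in 2 to 4 knockout libraries each, and the first 293T knockout library detected all 8 of them.

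Leu-TAG, with 4 rows, was detected in 3 rows of every FLAG-PUS7 library and in 3, 2 and 3 rows of the 293T knockout libraries. In H9 the knockout libraries held 0 and 3 rows. The groups overlapped. By exact permutation its difference of 22.9 points had p = 0.5 and an adjusted p of 0.518, which misses the threshold. The value was 4.17 points once the first H9 knockout library was left out. Its row without any detection, Leu-TAG-4-1, is a pseudogene, so with FLAG-PUS7 and in 3 of the 4 other knockout libraries the family was detected as fully as its tRNA genes allow.

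**Figure D3:**
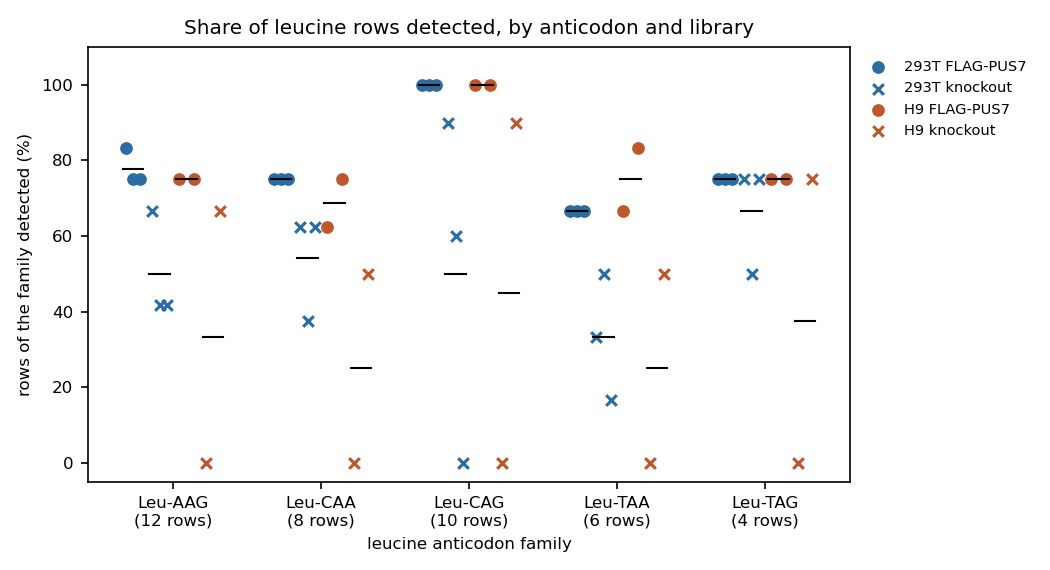
Percent of a family's rows detected (vertical axis) in each library (circles FLAG-PUS7, crosses knockout; blue 293T, orange H9), with the group mean as a bar, for the 5 leucine anticodon families. Leu-CAG lies at 100% in all FLAG-PUS7 libraries and between 0% and 90% in knockout libraries, and in Leu-TAG circles and crosses meet at 75%.

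Leu-CAA contains the intron-bearing genes. RefSeq gives Leu-CAA-1-1, Leu-CAA-1-2, Leu-CAA-2-1, Leu-CAA-3-1 and Leu-CAA-4-1 a length of 105 to 108 bases, whereas the other 30 matched leucine genes have 68 to 84 bases, among them TRL-CAA5-1, TRL-CAA6-1 and the pseudogene TRL-CAA7-1. All 5 long rows were detected in each FLAG-PUS7 library. The 293T knockout libraries detected 5, 3 and 5 of the 5, and those of H9 0 and 4. Thus 2 of the 3 knockout libraries of 293T held every intron-bearing leucine row. Leu-CAA-1-1 (TRL-CAA1-1, chromosome 6, 28896223 to 28896328), Leu-CAA-1-2 (TRL-CAA1-2, chromosome 6, 28941053 to 28941157) and Leu-CAA-4-1 (TRL-CAA4-1, chromosome 1, 248873855 to 248873960) were in all 4 knockout libraries that hold tRNA rows. Leu-CAA-3-1 (TRL-CAA3-1, chromosome 6, 27602569 to 27602675) was in 3 and Leu-CAA-2-1 (TRL-CAA2-1, chromosome 6, 27605638 to 27605745) in 2.

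As a family of 8 rows, Leu-CAA was detected in 6 rows of each 293T FLAG-PUS7 library and in 5 and 6 rows of the H9 ones, against 5, 3 and 5 in the 293T knockout and 0 and 4 in the H9 knockout. The difference was 32.3 points. With the first H9 knockout library left out this came to 19.8 points (adjusted p = 0.0442 by exact permutation). In the first and the third 293T knockout library the only row missing of those seen with FLAG-PUS7 was Leu-CAA-6-1 (TRL-CAA6-1, chromosome 1, 161611946 to 161612029), a gene of 84 bases and so not among the long ones. It was in all 3 FLAG-PUS7 libraries of 293T, in the second of H9 and in no knockout library. Its width class is 1, where rows of all tRNAs were detected at 0.403% to 1.21% in the knockout libraries that hold tRNA rows. Without Leu-CAA-6-1 the family differed by 26.2 points, and the call was lost (adjusted p = 0.198 by exact permutation).

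The calls of Leu-AAG and Leu-TAA were lost likewise. After leaving out the 6 rows seen in a FLAG-PUS7 library and in no knockout library, Leu-AAG differed by 30 points and Leu-TAA by 31.3 points, at an adjusted p of 0.211 each (exact permutation test). These rows were picked by their detection, so the values describe what the calls rest on. Adjusted p-values over all alternatives ranged from 0.0211 to 0.263 for Leu-AAG, to 0.227 for Leu-CAA and to 0.211 for Leu-TAA.

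Set against the rest of leucine, Leu-CAA rows had a smaller difference between FLAG-PUS7 and knockout, by -6.60 points. This value was -1.67 points without the first H9 knockout library, -1.59 with copies of a sequence counted once and 0.54 without the third 293T knockout library, so its sign is not settled. Tyr, Arg-TCT and Ile-TAT, the other families with intron-bearing genes, were rarer in the mock pull-downs. Tyr rows were detected at 15.7% ± 12.2 (SD, n = 3) in the 293T knockout, Arg-TCT rows at 22.2% ± 9.62 (SD, n = 3) and Ile-TAT rows at 13.3% ± 23.1 (SD, n = 3), and all 3 at 0% in both H9 knockout libraries. Leu-CAA rows, the 3 short ones included, were at 54.2% ± 14.4 (SD, n = 3) in the 293T knockout and at 0% and 50.0% in H9. Over all tRNAs the share was 26.6% in the 293T knockout and 0% and 36.8% in H9. All leucine rows were at 48.8% in the 293T knockout, and rows of serine and selenocysteine at 55.9%. The long Leu-CAA rows are in width class 4, but for Leu-CAA-3-1 in class 3. Class 4 rows of all tRNAs were at 66.3% to 96.5% in the knockout libraries that hold tRNA rows. Lengths and width classes of the Tyr, Arg-TCT and Ile-TAT rows are not given here, so the families may not hold like rows. This contrast between families, and the part of the width class in it, was not tested.

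The width class is read as the width of the text that a row's values had before they became level numbers. Over all tRNAs, detection in FLAG-PUS7 libraries was 31.0% to 39.5% in class 1 and 100% in class 4. In the 4 knockout libraries that hold tRNA rows it was 0.403% to 1.21% in class 1 and 66.3% to 96.5% in class 4. Within leucine, class 4 lay below class 3 in 3 of these libraries, narrowly in the first and second of 293T (92.9% against 93.3% and 64.3% against 66.7%). In the second of H9 it was 85.7% against 100%. The third of 293T went the other way, at 78.6% against 20%. Of the leucine rows, 11 were in class 1, 1 in class 2, 15 in class 3 and 14 in class 4. In class 3, which includes the 9 numbered Leu-CAG rows, leucine rows were detected at 93.3%, 66.7% and 20% in the 293T knockout libraries and at 100% in the second of H9. The 151 rows of other tRNAs in class 3 (nm and nmt rows left out) were at 70.9%, 33.1%, 36.4% and 63.6%. Leucine was thus higher in 3 of these 4 libraries and lower in the third of 293T, which held 0 Leu-CAG rows. The leucine rows of class 3 are not independent, as they include 7 copies of Leu-CAG-1, 3 of Leu-AAG-1 and 2 of Leu-CAG-2. In class 4, leucine rows were at 92.9%, 64.3%, 78.6% and 85.7%, and the 72 other rows at 97.2%, 66.7%, 69.4% and 88.9%. The 3 rows seen with FLAG-PUS7 alone belong to different classes. Among rows in all FLAG-PUS7 libraries, 42 of 46 of class 1, that of Leu-CAG-chr9-7, were in no knockout library, and 66 of 126 of class 2, that of Leu-AAG-4-1. In class 4, that of Leu-TAA-3-1, these were 2 of 86, and the other was Tyr-GTA-5-3, named after its values were seen.

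**Figure D4:**
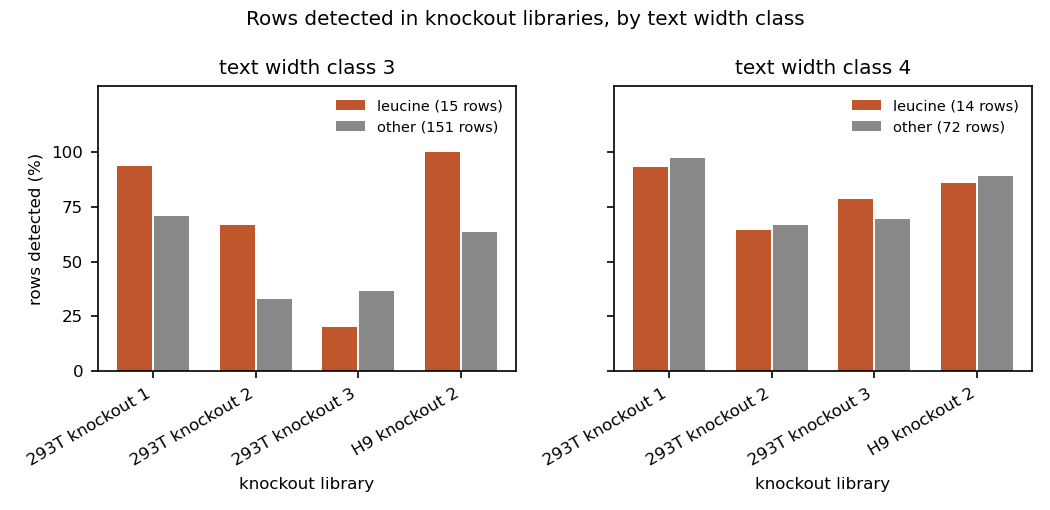
Percent of rows detected (vertical axis) in the 4 knockout libraries with any tRNA row (horizontal axis) for leucine rows (orange) and all other rows that lack the nm and nmt prefixes (grey), in text width class 3 (left) and 4 (right). In class 3 leucine is above the other rows except in the third 293T knockout library, at 20% against 36.4%, and in class 4 the bars differ less.

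In 4 of the 5 leucine sequences with several copies, the copies lay close together in the level order. The 7 Leu-CAG-1 rows, 6 on chromosome 1 and 1 on chromosome 6, took levels 10 to 23 of 353 in the first 293T FLAG-PUS7 library, 17 to 25 of 340 in the second and 310 to 327 of 335 in the third. In H9 they took 316 to 323 of 412 and 325 to 333 of 414. Over the 5 FLAG-PUS7 libraries the span was 7 to 17 levels for Leu-CAG-1, 4 to 7 for the 4 copies of Leu-AAG-2, 3 to 16 for the 3 copies of Leu-AAG-1 and 1 to 11 for the 2 copies of Leu-CAG-2. Levels follow the order of text, so neighbouring levels mean like leading characters and no like amount. The 2 copies of Leu-CAA-1, whose genes differ by length (106 and 105 bases), lay 45 to 117 levels apart. In FLAG-PUS7 libraries 0 leucine rows shared a level, whereas in the 4 knockout libraries that hold tRNA rows 9 to 17 leucine rows shared a level with another.

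In the mock pull-downs some copies of a sequence were detected without the others. The 7 copies of Leu-CAG-1 were all detected in the first 293T and the second H9 knockout library, 5 of them in the second 293T and 0 in the third. Of the 4 copies of Leu-AAG-2, 4, 2 and 3 were detected in 293T and 4 in the second of H9. Many detections in the 2 sparser libraries were at the lowest level above none of their width class. These were 11 of 19 leucine detections in the second and 6 of 14 in the third 293T knockout library, against 1 of 27 in the first and 0 of 27 in the second H9 library. In the order of text this level need not hold the fewest reads.

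No leucine family passed the test of a difference between the lines. The difference of effect, H9 minus 293T, was 13.9 points for Leu-AAG, 22.9 for Leu-CAA, 5 for Leu-CAG, 16.7 for Leu-TAA and 29.2 for Leu-TAG (exact permutation of line labels within genotype, unadjusted p from 0.5 to 1, adjusted p = 1 for each). Over all tRNAs this test called 0% of 57 families, and 0 had an unadjusted p under 0.05. Without the first H9 knockout library all 5 values turned negative, from -2.08 points for Leu-CAA to -40.0 points for Leu-CAG, so the direction rests on that library. Among the FLAG-PUS7 libraries 3 leucine rows varied, Leu-AAG-6-1, Leu-CAA-6-1 and Leu-TAA-5-1, and none of them split the libraries by line.

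Peak lists, called by the authors for FLAG-PUS7 libraries only, give a readout along the genome. They are named as being without tRNA, yet 12 of the 35 leucine genes in RefSeq overlapped a peak in at least 1 list. For the 32 of these 35 that are tRNA genes this was 12, or 37.5%, where 27.9% of 423 RefSeq tRNA genes did. Per list, 5, 5 and 3 leucine genes had a peak in 293T, and 12 and 5 in H9. Of the 32 leucine tRNA genes these are 15.6%, 15.6%, 9.38%, 37.5% and 15.6%, where 11.8%, 9.69%, 4.26%, 26.7% and 13.0% of the 423 tRNA genes had one. Leucine peaks carried 6.53%, 8.45% and 7.74% of all peak signal in the 293T lists and 4.00% and 5.94% in those of H9. Most of that came from 1 gene, TRL-CAG2-1, with 58.3% to 73.0% of the leucine signal in a list. The other leucine peaks together carried 1.67% to 2.98% of a list's signal. Each peak was counted in full, also where it covered a gene only in part. The share of signal at all tRNA genes is not given here. The signal is the authors' own value per peak and is not scaled for depth, so the lists are set beside each other and not tested. RefSeq's table gives no strand here, so overlap was taken on either strand.

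The genes with a peak in all 5 lists were TRL-CAG2-1, TRL-TAA4-1 and TRL-TAG3-1, where 4.26% of the 423 tRNA genes had one in all 5. At TRL-TAA4-1 (chromosome 6, 27230555 to 27230637) the peak at chr6:27230401-27230600 on the minus strand carried 80, 145 and 63 in the 293T lists and 119 and 75 in those of H9, and ranked 10 to 14 in the lists. At TRL-TAG3-1 (chromosome 16, 22195711 to 22195792) the 293T lists gave 48, 36 and 24 and the H9 lists 21 and 10. The median signal of all peaks was likewise higher in the 293T lists, at 20, 28 and 40 against 3 and 11 in H9. TRL-CAG2-1 (chromosome 16, 57299951 to 57300033) held the strongest leucine peak of every list, at rank 5 to 7, with 212 to 395. Its peak covers 33 bases of the gene, or 39.8%, and otherwise the sequence beyond the gene's higher coordinate. The peak at TRL-TAA4-1 covers 46 bases (55.4%) and otherwise sequence below its lower coordinate, whereas TRL-TAG3-1 lies wholly in its peak.

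TRL-AAG2-4 (chromosome 16, 22297140 to 22297221) had a peak in 4 lists, with 20 and 18 in the first and second of 293T and 27 and 7 in H9, which covered 21 bases of the gene. TRL-TAG1-1 (chromosome 17, 8120314 to 8120395) had 10 and 16 in those 293T lists and 9 in the first of H9. The other 7 genes had a peak in H9 alone, TRL-TAA2-1 with 6 and 10 in both lists and the rest with 3 to 16 in the first, the longest list with 1605 peaks. Among them were the intron-bearing TRL-CAA4-1 with 16, wholly inside its peak, and TRL-CAA3-1 with 6. The 293T lists held 120, 85 and 39 peaks, so a gene without a peak there was not shown to have a lower signal. Peaks are made of bins of 200 bases, and of the 12 genes 4 lay wholly in a peak and 8 in part, from 15.9% to 98.8% of their length, so the position of the reads relative to the tRNA is not known from the lists.

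A further peak lay beside a leucine gene in every list. At chr5:181173801-181174000 on the minus strand, 43 bases from TRL-AAG1-3 (chromosome 5, 181174044 to 181174125), the 293T lists gave a signal of 46, 51 and 28 and the H9 lists 67 and 53. It did not overlap the gene and is not among the 12. With peaks within 200 bases counted, 13 leucine genes had one.

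**Figure D5:**
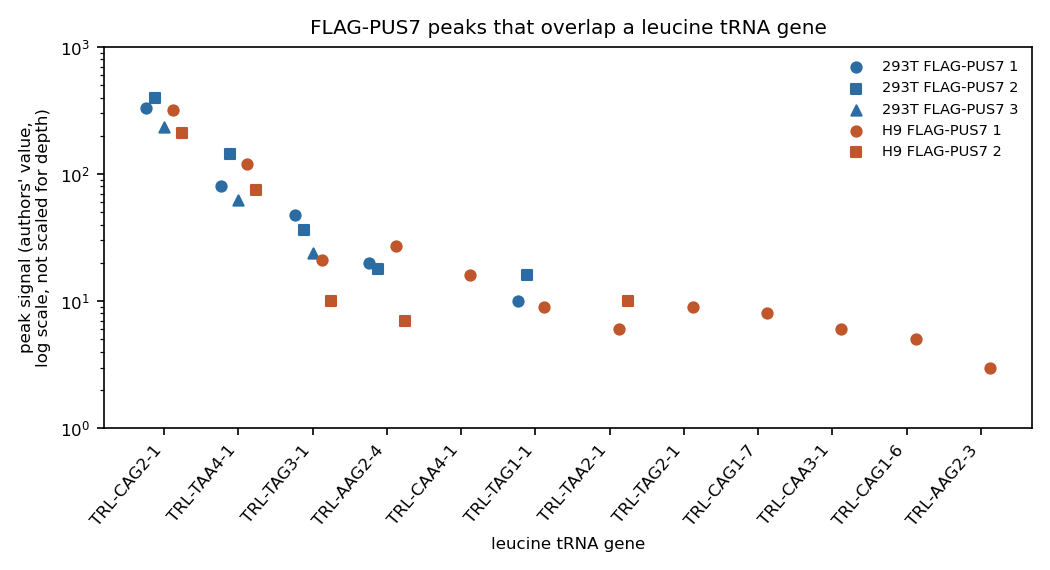
Peak signal as deposited (vertical axis, log scale, not scaled for depth) at the 12 leucine tRNA genes that overlap a FLAG-PUS7 peak (horizontal axis, by highest signal), with blue symbols for the 3 lists of 293T and orange for the 2 of H9. TRL-CAG2-1 is highest with 212 to 395, and 7 genes have points from H9 alone, all at 16 or below.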

How the data were processed

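Per the labels' protocols, each replicate took 2 plates of 15 cm, cells were irradiated at 254 nm with 200 mJ/cm2, and RNase I-treated lysates went onto anti-FLAG beads (2 h, 4 °C). Reads of 50 cycles came from a MiSeq. The submitters' processing notes name Bowtie, SAMtools, bedtools and hg38, without versions or roles.

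The tRNA values the authors deposited are level numbers without a unit. They run without gaps from 1 upwards in all 10 tables, the form left when text is coded by its sorted order. The first H9 knockout table gave each row's text width, numbered from 1 for the narrowest, and the lowest run of levels that rises in width was read as no reads. In the 9 other tables, 0 of 381 levels shared by rows mixed widths. The row of unmapped reads was left out, and its share is unknown. The peak lists hold the authors' signal and p-value per peak, made with a peak caller that no source used here names. A peak was set at a gene by an overlap of at least 1 base. Same-strand overlap, planned first, could not be used because the gene table has no strand.

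Shares were compared over all 120 exchanges of the FLAG-PUS7 label within lines, weighting lines equally, so that the smallest p is 0.0167. Line labels had 100 exchanges. The code was checked on simulated tables. Python 3.11.15, NumPy 2.4.6 and pandas 2.3.3 were used. Members, lists and tests were chosen with earlier results of these data known. Named are all leucine families, every Leu-CAA row, rows in all FLAG-PUS7 and no knockout libraries, rows that vary among FLAG-PUS7 libraries, up to 5 rows in none, and genes with peaks in all lists or 1 line; further rows were named to complete counts. Alternatives left out each library in turn, took other row sets, set a stricter detection and used the replicate number as a block.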

Additional observations from a re-analysis of the deposited data

How the results depend on the processing

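The share differences of the 5 leucine families kept their sign under every alternative run. Leaving out each library in turn gave 18.1 to 51.4 points for Leu-AAG, 19.8 to 44.8 for Leu-CAA, 30 to 75 for Leu-CAG, 29.2 to 54.2 for Leu-TAA and 4.17 to 41.7 for Leu-TAG, with 23 to 49 families called and 45 in the full data. All 4 leucine calls ended without either H9 FLAG-PUS7 library, the 2 cases with 23 called, and those of Leu-CAA and Leu-CAG without any 1 of the 293T FLAG-PUS7 libraries. With the replicate number as a block the differences stay 34.7, 32.3, 52.5 and 41.7 points for Leu-AAG, Leu-CAA, Leu-CAG and Leu-TAA, but 0 of 57 families can pass, since the smallest p of 32 exchanges is 0.0625. Libraries with the same number had correlations of -0.0245 to 0.0369 in 293T. Rows of width classes 3 and 4 were at 100% in every FLAG-PUS7 library, and class 1 rows at 1.21% or less in the mock. Few rows could thus vary in both, so these correlations cannot decide whether same-numbered libraries are pairs. The main test did not take the numbers as pairs. In H9 the correlation was 0.0341 for the same number and -0.0341 for another. With 2 libraries per genotype these values can differ in sign alone, and the first H9 knockout library detected 0 rows, so H9 says little on pairing. Leu-CAG was not called at 47.2 points with RefSeq tRNA genes only or without chr-named rows. Leaving out the rows in no knockout library, chosen after seeing the data as was counting copies once, gave 30 for Leu-AAG, 26.2 for Leu-CAA, 47.2 for Leu-CAG and 31.3 for Leu-TAA, none called. With chr-named rows alone, 10 of 16 families were called and leucine differed by 1 row. Leu-CAA minus other leucine rows ran from -11.5 to 0.54 points over left-out libraries. The line differences ran from -19.4 to 47.2 points for Leu-AAG, -2.08 to 47.9 for Leu-CAA, -40 to 50 for Leu-CAG, -8.33 to 41.7 for Leu-TAA and -8.33 to 66.7 for Leu-TAG. They turned negative without the first H9 knockout library (-19.4, -2.08, -40, -8.33 and -8.33 points), and for Leu-CAG at -15 without the first 293T knockout library. Unknown depth limits each statement that a row was not detected.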

Other observations

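The tables also hold 2 leucine rows with the nmt prefix, outside the 41. The row nmt.Leu-TAA-4-1 was detected in both H9 FLAG-PUS7 libraries and in 0 of the 3 of 293T. The row nmt.Leu-TAA-1-1 was detected in the third 293T and the first H9 FLAG-PUS7 library. Neither was in any knockout library. As a family they differed by 45.8 points between FLAG-PUS7 and knockout, which did not pass (exact permutation test, p = 0.167, adjusted p = 0.186 over 57 families).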
